A study of Mus musculus with 8 samples.

Results

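The genes described here encode the proteins of the cytosolic ribosome. They were chosen by gene name, as Rpl or Rps followed by a number and, in some names, by the letter a, l, x or y and a further number, together with Rplp0, Rplp2 and Rpsa, and where a name stood on several lines the identifier with the most counts was kept. The rule found 84 genes of 26873 features, 33 of the small subunit and 51 of the large subunit, and 82 of them had enough counts to be tested. Of 77 standard names of mammalian ribosomal proteins, 72 were found, and Rps7, Rps9, Rps14, Rps26 and Rplp1 were not analysed here. The other 12 names were paralogs or copies such as Rpl22l1, Rps27l and Rpl10l.

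The libraries came from messenger RNA of wild-type bone marrow mesenchymal stem cells, described as a cell line, under osteogenic differentiation. All arms received medium in which polycaprolactone scaffolds, an absorbable polyester used in bone repair, had been soaked. The 4 arms were PCL-SE (read as S7 with E7), PCL-S (S7), PCL-E (E7) and PCL-O (taken as the blank by elimination), each with 1 library on day 7 and 1 on day 3, and S7 and E7 are called peptides in the series title. The extraction protocol gives n = 3 RNA samples, yet each arm and day has a single column of counts. The sources do not say if RNA was combined before sequencing. "S7 arms" below are PCL-SE and PCL-S, and "arms without S7" are PCL-E and PCL-O. The samples are labelled as mouse, whereas 22050 features carry rat Ensembl identifiers, 0 carry mouse ones and 4823 are new genes.

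Library totals ran from 32950326 to 41754124 counts. CPM are counts scaled to a library total of 1e+06, and fold changes are on the log2 scale after TMM scaling, which adjusts libraries for a few very abundant genes. The fit joined all 8 libraries with terms for S7, day, their interaction and E7. Genes were called at an adjusted p under 0.05, and each ± after a log2 fold change is its standard error. Each S7 group holds 2 different arms and no arm and day is repeated. The p-values therefore measure how alike the pooled arms were, not the spread between cultures. Of the markers of other cell types, Adgre1, Cd3e, Cdh5 and Hba-a1 were at 0 in all 8 libraries, and the 10 haematopoietic markers together reached 18.8 and 19.9 CPM in PCL-SE and PCL-S on day 7, against 10.0 and 10.9 CPM in PCL-E and PCL-O. On day 3 that sum was 17.8 and 16.3 CPM in PCL-SE and PCL-S, against 7.41 and 6.81 CPM in PCL-E and PCL-O. It was mostly Cd14, and its part in the results was not tested. Of the osteoblast markers, Sp7 reached at most 0.640 CPM and Bglap at most 0.152 CPM. Col1a1, the main bone matrix collagen, had 5273 and 5659 CPM in PCL-SE and PCL-S on day 7, against 15347 CPM in PCL-E and 24758 CPM in PCL-O, and on day 3 it had 29957 and 32384 CPM in PCL-SE and PCL-S, against 20401 CPM in PCL-E and 18908 CPM in PCL-O, the opposite order. Runx2, an early regulator of the lineage, had 35.2 and 30.2 CPM in PCL-SE and PCL-S on day 7, against 24.1 CPM in PCL-E and 19.6 CPM in PCL-O. Spp1, the matrix protein osteopontin, had 2795 and 1680 CPM in PCL-SE and PCL-S on day 7, against 1022 CPM in PCL-E and 1296 CPM in PCL-O. Alpl, of the same list, went the other way, with 1.33 and 0.698 CPM against 8.60 and 13.2 CPM in the same order. Col1a2 did so too, at 2011 and 1961 CPM against 6159 and 9342 CPM. The 10 stromal markers summed to 3313 and 3405 CPM in PCL-SE and PCL-S on day 7, against 4897 and 5086 CPM in PCL-E and PCL-O. The largest part of that sum was Itgb1, with 1718 and 1841 CPM against 3503 and 3500 CPM in the same order. Of the 10, Cd44 (503 and 505 against 290 and 225 CPM) and Pdgfra were higher, and Eng and Pdgfrb overlapped. On day 3 the sum had the opposite order, with 6121 and 5940 CPM in PCL-SE and PCL-S, against 5377 and 5237 CPM in PCL-E and PCL-O. The 3 chondrocyte markers together had 99.5 and 85.0 CPM in PCL-SE and PCL-S on day 7, against 339 CPM in PCL-E and 311 CPM in PCL-O, and on day 3 they had 181 and 168 CPM in PCL-SE and PCL-S, against 273 CPM in PCL-E and 503 CPM in PCL-O. The endothelial gene Tek had 14.1 and 12.6 CPM in PCL-SE and PCL-S on day 3, against 6.37 CPM in PCL-E and 5.42 CPM in PCL-O. On day 7 it had 4.11 and 4.07 CPM in PCL-SE and PCL-S, against 4.31 CPM in PCL-E and 3.25 CPM in PCL-O. Kdr, of the same list, reached at most 0.244 CPM. Apart from Tek, Eng and Pdgfrb on day 7, the groups did not overlap in these values, and the part of these markers in the results was not tested. In bulk RNA, fewer cells of a type and less RNA per cell cannot be told apart.

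The cytosolic ribosome translates messenger RNA into protein. Its small subunit reads the message and its large subunit joins the amino acids, and most of its proteins are needed in equal number, so their genes are usually expressed together. Many of these messages begin with a short run of pyrimidines at the cap, which places their translation under the mTOR kinase, and the transcription factor MYC is known to raise both ribosomal protein genes and ribosome assembly factors.

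Promoter sequence is shown because the genes moved together. The bases around the transcription start were taken from RefSeq for mouse, build GRCm38.p6, which had entries for 59 of the 84 gene symbols, and no rat sequence was used. Each line gives the 60 bases from 40 before to 20 after the annotated start, 5′ to 3′ on the transcript strand. Capitals mark the pyrimidine string CTTTCC, its shorter form CTTTC that it contains, and the string CTTCC, all read on the transcript strand, and the ETS-type motif CCGGAAG read on either strand. Motifs that overlap are merged. The strings are marked anywhere in the window, also before the annotated start. A mark therefore does not show a pyrimidine run at the cap, and a missing mark does not show that it is absent. The first 6 genes hold CTTTCC, and the last 3, among the highest responders to S7 or the most abundant members, hold none of the 4 motifs in this window.
Rpl18 (chr7:45718031-45718090, plus strand): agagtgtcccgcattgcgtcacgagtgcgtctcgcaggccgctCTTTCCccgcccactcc
Rpl28 (chr7:4792925-4792984, plus strand): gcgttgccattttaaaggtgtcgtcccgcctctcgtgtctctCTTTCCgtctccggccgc
Rpl15 (chr14:18270967-18271026, minus strand): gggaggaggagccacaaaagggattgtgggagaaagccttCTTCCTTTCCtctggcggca
Rps10 (chr17:27635225-27635284, minus strand): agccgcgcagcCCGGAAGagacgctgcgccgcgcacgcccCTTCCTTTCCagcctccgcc
Rpl4 (chr9:64173347-64173406, plus strand): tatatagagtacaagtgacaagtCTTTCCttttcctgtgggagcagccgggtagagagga
Rpl35 (chr2:39005112-39005171, minus strand): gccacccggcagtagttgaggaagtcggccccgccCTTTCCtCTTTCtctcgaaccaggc
Rps3 (chr7:99483690-99483749, minus strand): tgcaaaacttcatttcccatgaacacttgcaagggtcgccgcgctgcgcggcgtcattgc
Rps2 (chr17:24720023-24720082, plus strand): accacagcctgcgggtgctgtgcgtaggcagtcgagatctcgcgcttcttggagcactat
Rplp0 (chr5:115559427-115559486, plus strand): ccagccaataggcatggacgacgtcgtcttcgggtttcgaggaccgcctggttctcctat

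In the 60-base window and on the transcript strand, CTTTCC stood in 13 of 71 member promoters (18.3%), against 948 of all 32851 promoters (2.89%). Over all 300 bases it stood in 27 of 71 (38.03%), against 14.1% of all promoters. On the other strand of the 60-base window it stood in 1 of 71 (1.41%), against 2.55% of all promoters. CTTTC stood in 29.6% of member windows on the transcript strand, against 8.11% of all windows. CCGGAAG on either strand stood in 15.5% of member windows, against 3.85% of all windows, and in 33.8% of member promoters of 300 bases, against 8.86% of all. A match is a description of these letters in mouse and not a site in the cells studied. With CTTTCC in the window, Rpl18 stood at a log2 fold change of 1.19 on day 7, Rps27 at 0.33 and Rpl38 at -0.24. Without it, Rps3 stood at 1.25 and Rpl12 at 0.21. A link between these strings and the fold changes was not tested.

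Per length, the members spanned a wide range of levels. After Rplp0, at a mean of 1570 FPKM over the 8 libraries, came Rps2 at 1212 FPKM, Rpsa at 1097 FPKM, Rpl19 at 808 FPKM and Rps20 at 786 FPKM. The lowest tested members were Rpl37 at 0.568 FPKM and Rpl39l at 0.920 FPKM, and for Rpl37 nearly all counts of the protein stood on other features. The quartiles of the mean level were 125, 372 and 545 FPKM, and 57 of the 84 members had a mean of at least 100 CPM.

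The members took a larger share of the library in both S7 arms than in both arms without S7, on each day. On day 7 they held 3.68% of all counts in PCL-SE and 3.64% in PCL-S, against 2.11% in PCL-E and 1.56% in PCL-O. On day 3 they held 2.22% in PCL-SE and 2.17% in PCL-S, against 1.78% in PCL-E and 1.66% in PCL-O. The S7 arms thus stood 2 times as high as the arms without S7 on day 7 and 1.28 times on day 3, and the groups did not overlap on either day. The ratios between single arms ran from 1.73 to 2.36 on day 7 and from 1.22 to 1.34 on day 3.

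**Figure D1:**
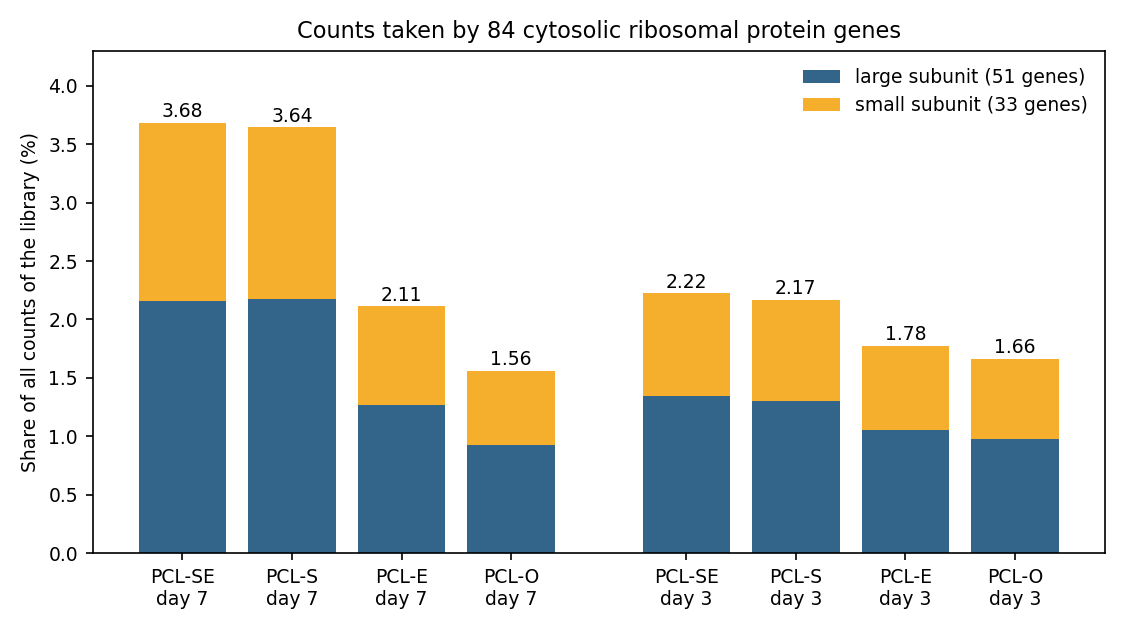
Share of all counts (%) taken by the 84 ribosomal protein genes in each of the 8 libraries, with large-subunit genes below and small-subunit genes above. The 2 S7 libraries of day 7 reach 3.68% and 3.64%, and PCL-O on day 7 is lowest at 1.56%.

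Both subunits moved in step. Small-subunit genes held 1.52% and 1.47% of counts in PCL-SE and PCL-S on day 7, against 0.847% in PCL-E and 0.634% in PCL-O. Large-subunit genes held 2.16% and 2.17% in PCL-SE and PCL-S, against 1.26% in PCL-E and 0.924% in PCL-O. Another quantity moved the opposite way on day 7. The 20 most counted genes outside the list took 8.17% and 8.24% of counts in PCL-SE and PCL-S, against 15.2% in PCL-E and 18.1% in PCL-O, and on day 3 they took 17.6% and 18.1% against 17.2% and 17.4%. With those 20 genes taken out of the totals, the day 7 ratio of the members' share was 1.82.

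S7 on day 7 went with higher levels of 70 of the 82 members tested, and none was called lower. Of all 15942 features, 24.9% were called higher and 26.2% lower. The members' median log2 fold change was 0.80, with quartiles of 0.64 and 0.94, while the median over all features was -0.03. Of the 33 small-subunit genes 31 rose, and of the 49 large-subunit genes tested 39 rose. In 74 of 82 members both S7 libraries stood above both libraries without S7, as did 47.6% of all features.

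**Figure D2:**
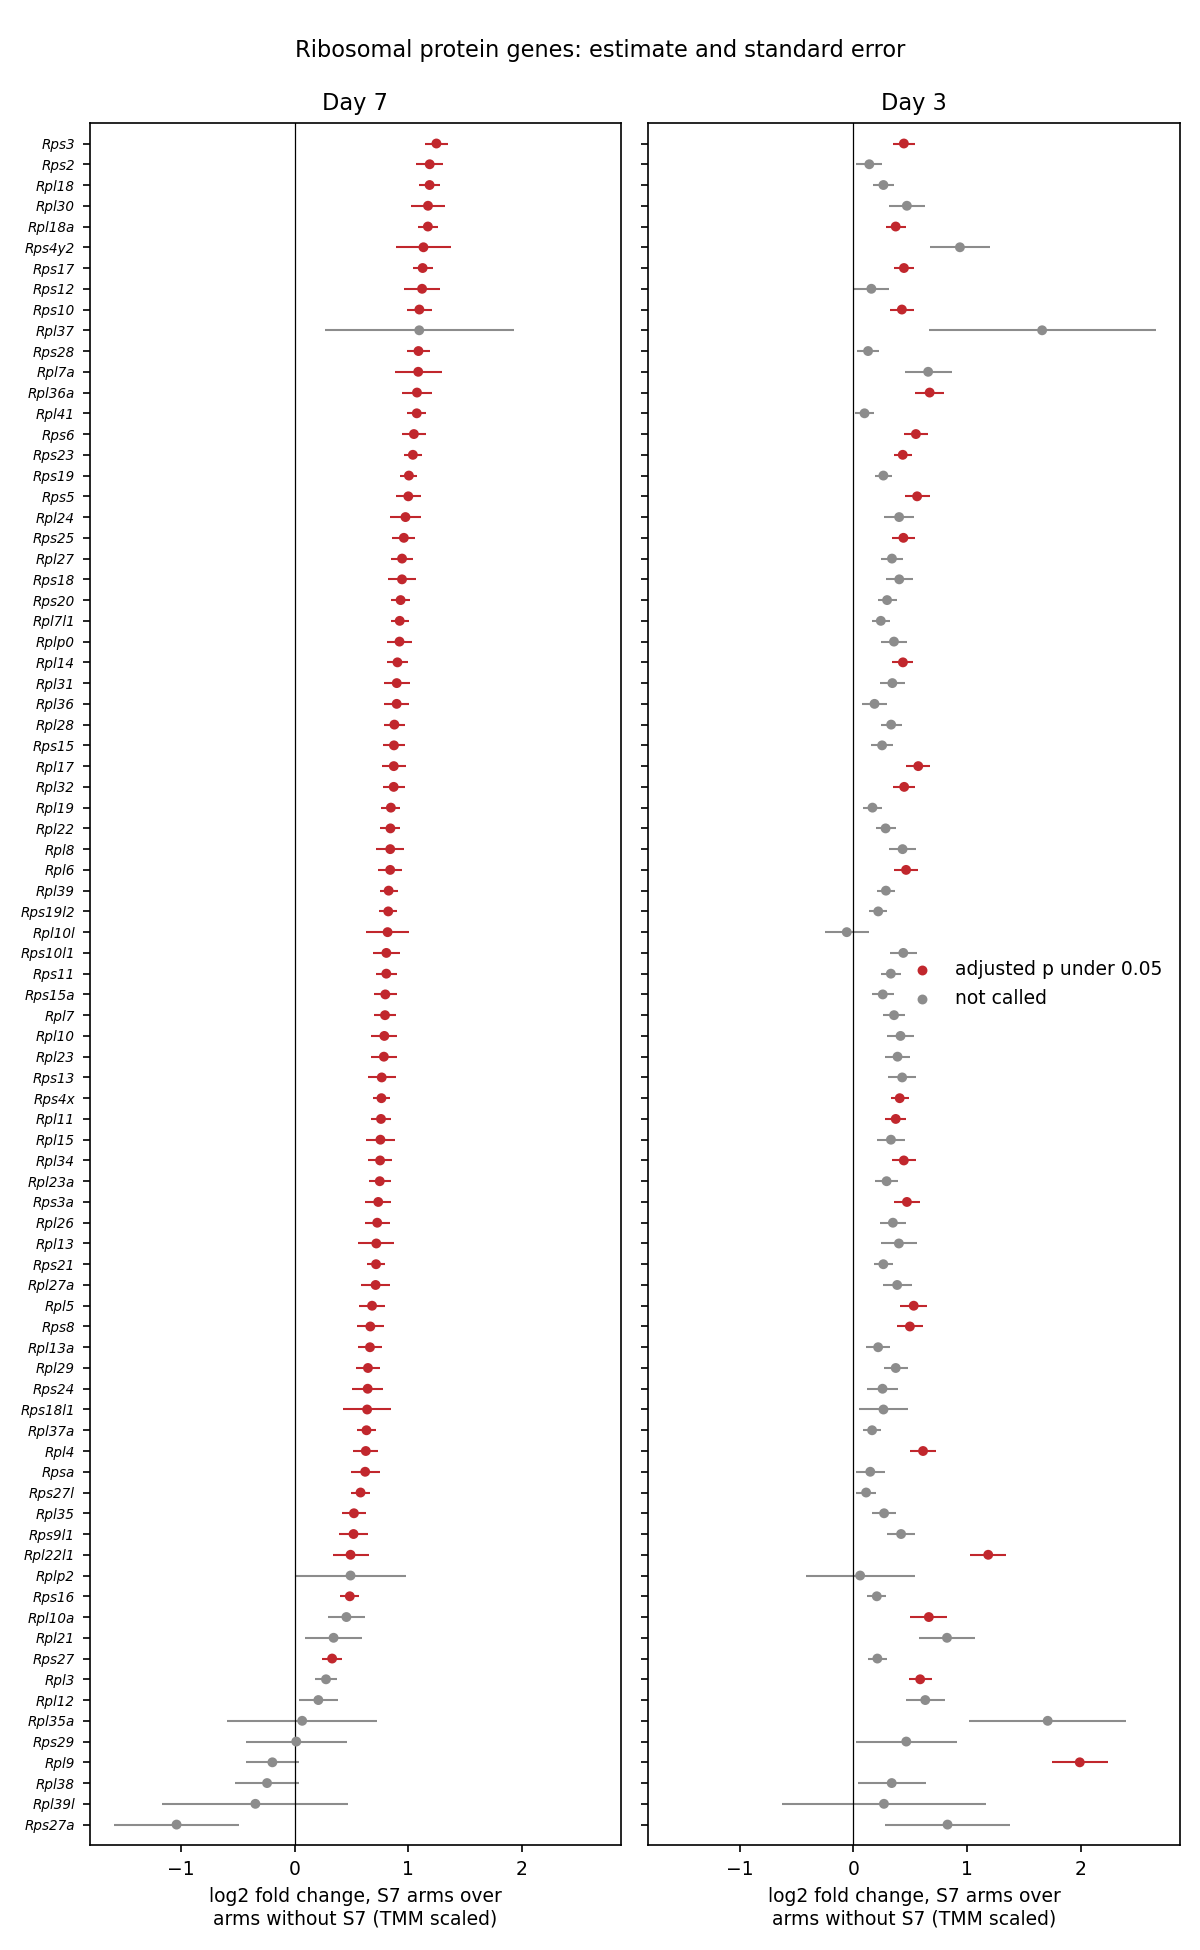
Log2 fold change of each of the 82 tested members, S7 arms over arms without S7, on day 7 (left) and day 3 (right), with bars of 1 standard error and red points for an adjusted p under 0.05. On day 7 the red points run from 0.33 (Rps27) to 1.25 (Rps3), and on day 3 nearly all points lie between 0 and 1, with 24 in red.

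Among the small-subunit genes, Rps3 (ENSRNOG00000017418), whose protein sits at the entry of the message channel, had 880 CPM in PCL-SE and 879 CPM in PCL-S on day 7, against 364 CPM in PCL-E and 275 CPM in PCL-O. It rose by 1.25 ± 0.10 on the log2 scale with S7 (edgeR quasi-likelihood test, adjusted p = 0.000242), the largest change of all members. Rps2, another protein of that entry and one of the most counted members, stood at 2141 and 1955 CPM in PCL-SE and PCL-S, against 896 CPM in PCL-E and 654 CPM in PCL-O. Its log2 fold change was 1.19 ± 0.12. Both genes had their lowest value in PCL-O and a higher one in PCL-E.

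Rps6, whose protein is a substrate of S6 kinase, had 466 and 423 CPM in PCL-SE and PCL-S on day 7, against 222 CPM in PCL-E and 151 CPM in PCL-O (log2 fold change 1.05 ± 0.10). Another feature annotated as this protein held further counts. Summed, the levels were 1040 and 940 CPM in PCL-SE and PCL-S, against 565 CPM in PCL-E and 392 CPM in PCL-O. Rps19, which is mutated in Diamond-Blackfan anaemia and acts in ribosomal RNA processing, had 146 and 140 CPM in PCL-SE and PCL-S, against 65.9 CPM in PCL-E and 56.4 CPM in PCL-O (1.00 ± 0.07). Rpsa, which is also known as a laminin receptor, had 1764 and 1836 CPM in PCL-SE and PCL-S, against 1190 CPM in PCL-E and 835 CPM in PCL-O (0.62 ± 0.13). Rps18 rose by 0.94 ± 0.12 and Rps4x by 0.76 ± 0.08. In all 5 genes the S7 and other libraries did not overlap. The 2 small-subunit genes that were not called were Rps29, at 0.599 to 1.37 CPM on day 7, and Rps27a.

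Of the large-subunit genes, Rplp0 (ENSRNOG00000001148), the base of the stalk that binds elongation factors, was the most abundant member per length, with a mean of 1570 FPKM over the 8 libraries. It had 2909 CPM in PCL-SE and 2974 CPM in PCL-S on day 7, against 1547 CPM in PCL-E and 1134 CPM in PCL-O, a log2 fold change of 0.92 ± 0.11. Rplp2, another stalk protein, did not separate the groups, with 48.1 and 79.1 CPM in PCL-SE and PCL-S, against 58.5 CPM in PCL-E and 19.03 CPM in PCL-O (0.49 ± 0.49, adjusted p = 0.436 by edgeR). Rpl18 had 536 and 546 CPM in PCL-SE and PCL-S, against 225 CPM in PCL-E and 183 CPM in PCL-O, and rose by 1.19 ± 0.09.

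Rpl5 and Rpl11, which bind 5S ribosomal RNA and, when free, the p53 regulator MDM2, rose by 0.68 ± 0.12 and 0.76 ± 0.09. Rpl11 had 462 and 468 CPM in PCL-SE and PCL-S, against 265 CPM in PCL-E and 208 CPM in PCL-O. Rpl10, which joins late in large-subunit assembly, rose by 0.79 ± 0.12, and Rpl13a by 0.66 ± 0.11. These values lay near the median of the members.

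The genes that moved least on day 7 included Rpl3, whose protein reaches towards the centre where peptide bonds form. It had 934 and 880 CPM in PCL-SE and PCL-S on day 7, against 746 CPM in PCL-E and 548 CPM in PCL-O (0.28 ± 0.10, adjusted p = 0.0566 by edgeR). Rpl12, at the stalk base, had 347 and 384 CPM in PCL-SE and PCL-S, against 345 CPM in PCL-E and 210 CPM in PCL-O (0.21 ± 0.17). In Rpl12 the PCL-SE and PCL-E libraries were almost level.

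On day 3, 24 of the 82 members were higher with S7 and none was lower, against 7.10% and 6.87% of all features. The members' median log2 fold change was 0.38, and that of all features was 0.00. Small-subunit genes gave 10 of the calls and large-subunit genes 14, and 21 of the 24 genes were also called on day 7. In 72 of 82 members both S7 libraries stood above both libraries without S7, as did 32.9% of all features. The number of calls on day 3 rested on single libraries. It fell to 2 without PCL-SE of day 3 and to 1 without PCL-S, PCL-E or PCL-O of day 3, it was 17 without either S7 library of day 7, and it reached 60 and 61 without PCL-E and PCL-O of day 7. The median stayed between 0.33 and 0.41 in all of these fits.

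The day 3 order of the members differed from that of day 7. Rpl4, which lines the exit tunnel, had 933 and 880 CPM in PCL-SE and PCL-S on day 3, against 623 CPM in PCL-E and 577 CPM in PCL-O, a log2 fold change of 0.61 ± 0.11 that was close to its 0.63 ± 0.11 on day 7. Rpl3 had 845 and 820 CPM in PCL-SE and PCL-S, against 595 CPM in PCL-E and 530 CPM in PCL-O (0.59 ± 0.10, adjusted p = 0.0128 by edgeR). Rpl10a rose by 0.66 ± 0.16 and Rpl5 by 0.53 ± 0.12. Rps2 and Rpl41, both among the strongest on day 7, had log2 fold changes of 0.14 ± 0.12 and 0.10 ± 0.08 on day 3. Rpl41, the smallest ribosomal protein, had 241 and 229 CPM in PCL-SE and PCL-S on day 3, against 232 CPM in PCL-E and 213 CPM in PCL-O, so that its groups overlapped.

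Rpl22l1, a paralog that can take the place of Rpl22, had the largest day 3 difference among the members with more than 20 CPM in both S7 libraries (log2 fold change 1.19 ± 0.16). It stood at 42.7 and 37.3 CPM in PCL-SE and PCL-S on day 3, against 19.6 CPM in PCL-E and 16.1 CPM in PCL-O (adjusted p = 0.00579 by edgeR). On day 7 it had 40.8 and 38.5 CPM in PCL-SE and PCL-S, against 31.8 CPM in PCL-E and 17.8 CPM in PCL-O (0.49 ± 0.16). Rpl22 itself had its larger difference on day 7, with a log2 fold change of 0.84 ± 0.09, and 0.28 ± 0.09 on day 3. Rpl22l1 lost its day 7 call when a trend on gene length was removed (log2 fold change 0.19) and without the E7 term (0.46).

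Time in culture was compared within the S7 arms and within the arms without S7. In the S7 arms, 58 of 82 members were higher on day 7 than on day 3 and 1 was lower, against 24.4% and 26.4% of all features, and the members' median log2 fold change was 0.48. With the length trend removed there were 32 higher and 4 lower at a median of 0.22, when 3876 and 3767 of 13686 features were. Under total-count scaling the median was 0.79. Other large complexes rose over time in these arms as well, as given below. The 1 member lower in the main fit was Rpl9. Rpl41 had 581 and 598 CPM in PCL-SE and PCL-S on day 7, against 241 and 229 CPM in PCL-SE and PCL-S on day 3 (1.02 ± 0.08). Rps2 rose by 0.88 ± 0.12 with time, while Rpl4 (0.06 ± 0.11) and Rpl3 (-0.18 ± 0.10) were not called. The count of calls fell to 31 without PCL-S of day 7, to 36 without PCL-S of day 3 and to 21 without PCL-SE of day 3.

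In the arms without S7, none of the 82 members was called between day 7 and day 3, against 0.671% higher and 0.935% lower over all features. The members' median log2 fold change was 0.04. At an unadjusted p under 0.05 there were 7 members (8.54%, against 15.8% of all features). DESeq2 called 3 members, and of all 15942 features it called 294 higher and 538 lower. The single arms differed in sign: the median log2 ratio of day 7 over day 3 was 0.16 in PCL-E and -0.08 in PCL-O, compared with 0.43 in PCL-SE and 0.51 in PCL-S. Each of these ratios has 1 library a side and no test. Rps12 fell most in PCL-O, to 88.9 CPM on day 7 against 154 CPM on day 3, apart from Rplp2, which had 19.03 CPM on day 7 against 48.0 CPM on day 3.

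**Figure D3:**
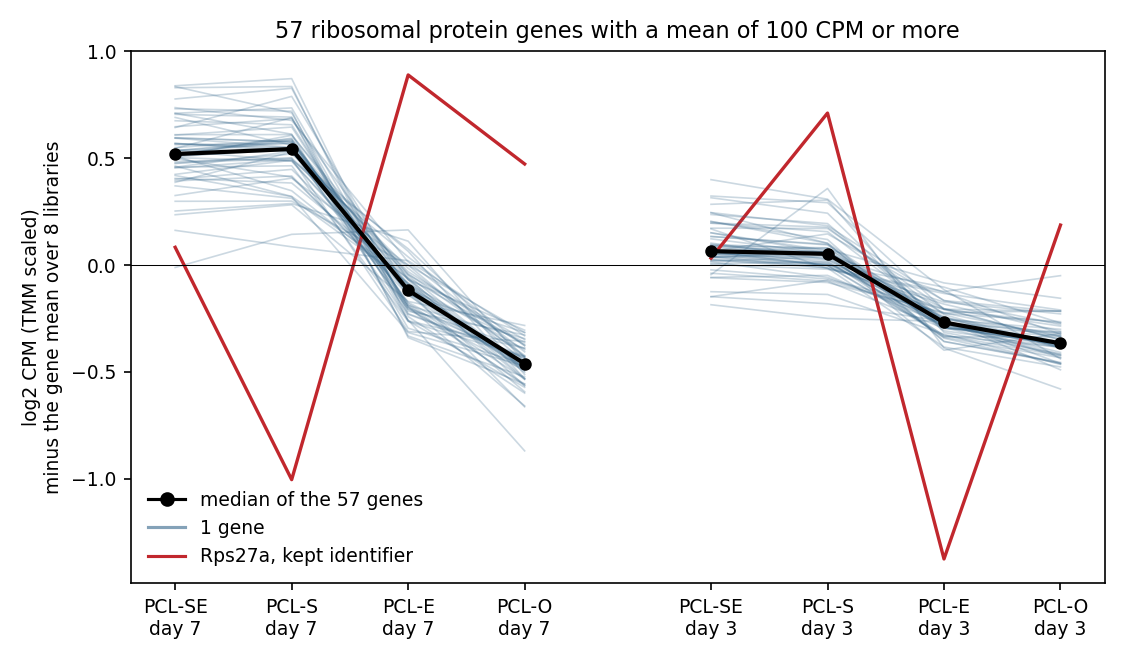
Log2 CPM (TMM scaled) of the 57 members with a mean of at least 100 CPM, each as the difference from its own mean over the 8 libraries, joined within a day. The black median stands at 0.52 and 0.54 in PCL-SE and PCL-S on day 7, against -0.12 in PCL-E and -0.46 in PCL-O, and 1 gene in red, Rps27a, leaves the pattern.

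The difference between S7 arms and arms without S7 was itself larger on day 7 than on day 3 in 32 members and smaller in 1, against 13.2% and 15.5% of all features. The members' median change of the log2 fold change was 0.43, which became 0.20 with the length trend removed (24 calls, 21 of them shared) and 0.67 under total-count scaling (56 calls). Of all 13686 features fitted with the length trend removed, 2376 were called higher and 2359 lower. Under total-count scaling these were 3721 and 1749 of 15942. Of the 37 members of 500 to 1000 bases with a mean of at least 100 CPM, 15 were called higher at a median of 0.43. Of 76 other features of that length and level, 31 were (40.8%), at a median of 0.39. The change was 1.05 ± 0.16 for Rps2 (adjusted p = 0.00609 by edgeR), 0.98 ± 0.12 for Rpl41, 0.96 ± 0.22 for Rps12 and 0.57 ± 0.16 for Rplp0. For Rpl4 the change was 0.01 ± 0.16. Rps6 was called (0.50 ± 0.15), but not once the counts of its annotated copies were added (0.23, adjusted p = 0.344 by edgeR). The count of 33 fell to 6 without PCL-SE of day 3, to between 11 and 13 without PCL-S of either day or PCL-E or PCL-O of day 3, and rose to 65 without PCL-E of day 7.

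PCL-E, with E7 and no S7, lay between the blank and the S7 arms. On day 7 it stood above PCL-O in 77 of 82 members (93.9%, against 60.4% of all features) and between PCL-O and both S7 arms in 71 (86.6%, against 35.8%). On day 3 it was above PCL-O in 71 members (86.6%, against 54.9%) and between PCL-O and both S7 arms in 66 (80.5%, against 22.9%). The median log2 ratio of PCL-E over PCL-O was 0.34 on day 7 and 0.09 on day 3. PCL-SE over PCL-S gave -0.01 on day 7 and 0.04 on day 3. PCL-SE and PCL-S over PCL-O gave 0.95 and 0.94 on day 7, and 0.41 and 0.39 on day 3. On day 7, 31 members stood at least 2-fold higher in PCL-SE than in PCL-O (4.79% of all features did), 32 in PCL-S (5.28%) and 1, Rplp2, in PCL-E (0.715%). On day 3 there were 3 in PCL-SE (2.12%) and 2 in PCL-S (2.08%). These comparisons share the PCL-O library of the day and have 1 library a side, so they carry no test.

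The E7 term of the fit, taken as the same on both days and with and without S7, called 0 of the 82 members and 0% of all features. It had a median of 0.11 over the members, was positive in 75 of 82 (91.5%, against 49.4% of all features), and reached an unadjusted p under 0.05 in 7 of the 82 (8.54%, against 3.69%), and DESeq2 called 0 members. Rps6 (0.24 ± 0.07) and Rpl36a (0.25 ± 0.09) were among those 7.

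The paralogs and copies differed in level. Rps9l1 averaged 277 CPM over the 8 libraries and rose by 0.52 ± 0.13 with S7 on day 7. Rps19l2 averaged 192 CPM, more than the kept Rps19 identifier at 90.8 CPM, and rose by 0.82 ± 0.08. Summed over the 5 features of its protein, Rps19 had 264 and 269 CPM in PCL-SE and PCL-S on day 7. In PCL-E and PCL-O that sum was 114 and 105 CPM. Rps19l2 had 295 and 298 CPM in PCL-SE and PCL-S on that day, against 151 and 136 CPM in PCL-E and PCL-O. Rps27l, at 72.7 CPM, was close to Rps27 at 83.8 CPM. Rpl7l1, a nucleolar relative of Rpl7, had 91.9 and 93.7 CPM in PCL-SE and PCL-S on day 7, against 45.0 CPM in PCL-E and 38.8 CPM in PCL-O (0.92 ± 0.08). Rps27l, a relative of Rps27 that p53 is known to induce, had 107 and 111 CPM in PCL-SE and PCL-S on day 7, against 66.5 CPM in PCL-E and 58.8 CPM in PCL-O (0.58 ± 0.09). On day 3 Rps27l had 62.1 and 60.7 CPM in PCL-SE and PCL-S, against 62.2 CPM in PCL-E and 53.0 CPM in PCL-O, and its groups overlapped. Rpl10l, a retrogene known from mouse testis, had 16.2 and 15.3 CPM in PCL-SE and PCL-S on day 7, against 9.24 CPM in PCL-E and 6.16 CPM in PCL-O. Rps4y2 had 11.5 and 10.8 CPM in PCL-SE and PCL-S, against 6.27 CPM in PCL-E and 2.88 CPM in PCL-O. Rpl39l stayed under 1.3 CPM, and Rpl3l, the form of striated muscle, had at most 5 counts in a library and was not tested, like Rpl30l1.

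Some ribosomal proteins had counts on several features, and the values of their members are uncertain. How alike these features are in sequence, and how reads were shared between them, was not tested. The table holds 265 further features annotated as ribosomal proteins of the cytosolic subunits, called copies here by their annotation only. For 14 members such copies took more than 20% of the counts of that protein. Copies took 99.7% for Rpl37, 97.6% for Rpl9, 93.7% for Rpl38, 84.02% for Rps13, 83.4% for Rpl30 and 56.7% for Rps6. Adding the copies to each member, a step chosen after the data were seen, gave 76 called members on day 7 and 28 on day 3. Including Rpl37, Rpl38 and Rpl9, 6 members entered the calls on day 7 and none left.

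Rpl9 was a member whose direction turned under this step. The kept identifier had 9.36 and 9.29 CPM in PCL-SE and PCL-S on day 7, against 11.9 CPM in PCL-E and 6.83 CPM in PCL-O. On day 3 it had 21.6 and 14.5 CPM in PCL-SE and PCL-S, against 4.18 CPM in PCL-E and 4.78 CPM in PCL-O. By itself it was the only member called lower with time in the S7 arms (-1.23 ± 0.23). With its copies Rpl9 had 703 and 687 CPM in PCL-SE and PCL-S on day 7, against 378 CPM in PCL-E and 299 CPM in PCL-O. On day 3 the sum was 380 and 371 CPM in PCL-SE and PCL-S, against 321 CPM in PCL-E and 297 CPM in PCL-O. The summed change with time in the S7 arms was 0.58, of the opposite sign to that of the kept identifier.

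Rps27a, which encodes ubiquitin fused to a small-subunit protein, stood on 2 identifiers whose counts went opposite ways from library to library. On day 7 the kept one (ENSRNOG00000034246) had 251 and 118 CPM in PCL-SE and PCL-S, against 388 CPM in PCL-E and 272 CPM in PCL-O (log2 fold change -1.04 ± 0.55, adjusted p = 0.16 by edgeR). The other identifier (ENSRNOG00000004426) had 431 and 548 CPM in PCL-SE and PCL-S, against 96.9 CPM in PCL-E and 72.9 CPM in PCL-O. Their sum was 682 and 666 CPM in PCL-SE and PCL-S, against 484 CPM in PCL-E and 345 CPM in PCL-O. On day 3 the sum was 408 and 393 CPM in PCL-SE and PCL-S, against 367 CPM in PCL-E and 368 CPM in PCL-O. The summed Rps27a, with the few counts of its annotated copies, rose by 0.49 with S7 on day 7 (adjusted p = 0.0124 by edgeR), so its place as the lowest member holds for 1 identifier only.

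**Figure D4:**
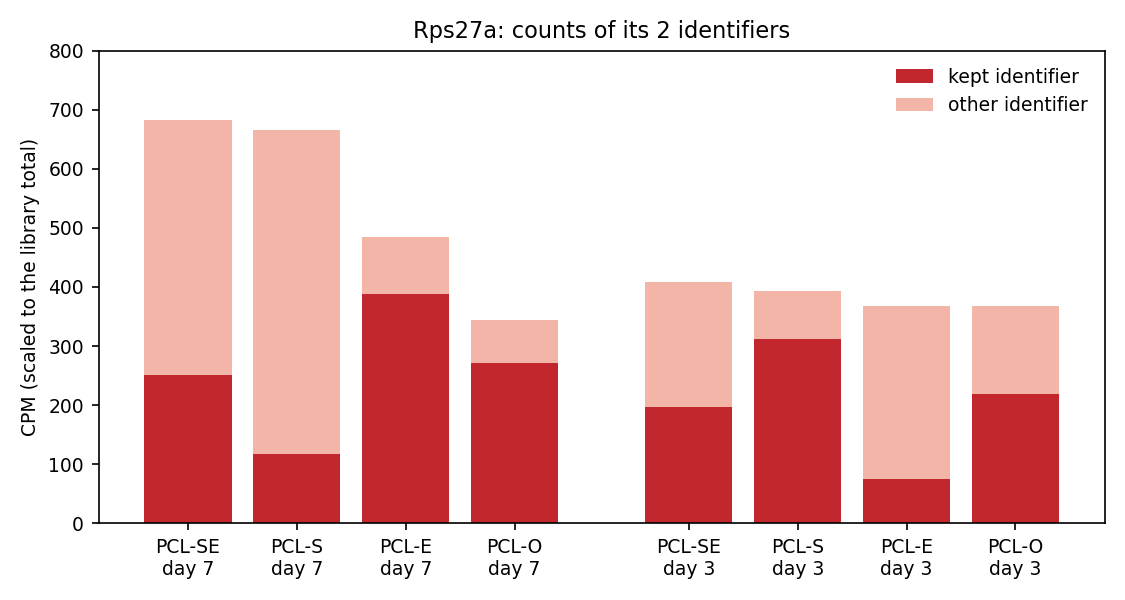
CPM (scaled to the library total) of the 2 identifiers named Rps27a in each library, stacked. The darker part, the kept identifier, swings between 75.2 and 388 CPM, while the whole bars of day 7 stand at 682 and 666 CPM in PCL-SE and PCL-S, against 484 and 345 CPM in PCL-E and PCL-O.

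Ribosomal protein genes are short, with a median length of 617 bases against 2397 bases over all features, and on day 7 short genes in general were higher with S7. Among other features of 500 to 1000 bases the median log2 fold change was 0.38, and 45.3% were called higher. Among the 50 members of that length the median was 0.81, and 44 were called higher. With a mean of at least 100 CPM as well, the medians were 0.84 for 37 members and 0.47 for 76 other features. On day 3 the 50 members had a median of 0.40, while the 1008 other features of that length had 0.03 and 5.75% were called higher. Removing a smooth trend on length from each library left 65 members called on day 7 at a median of 0.52, and 35 on day 3 at a median of 0.34. Over the 13686 features of that fit, 3970 were called higher and 3688 lower on day 7, and 1354 and 1351 on day 3. The part of RNA quality in the length trend was not tested.

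**Figure D5:**
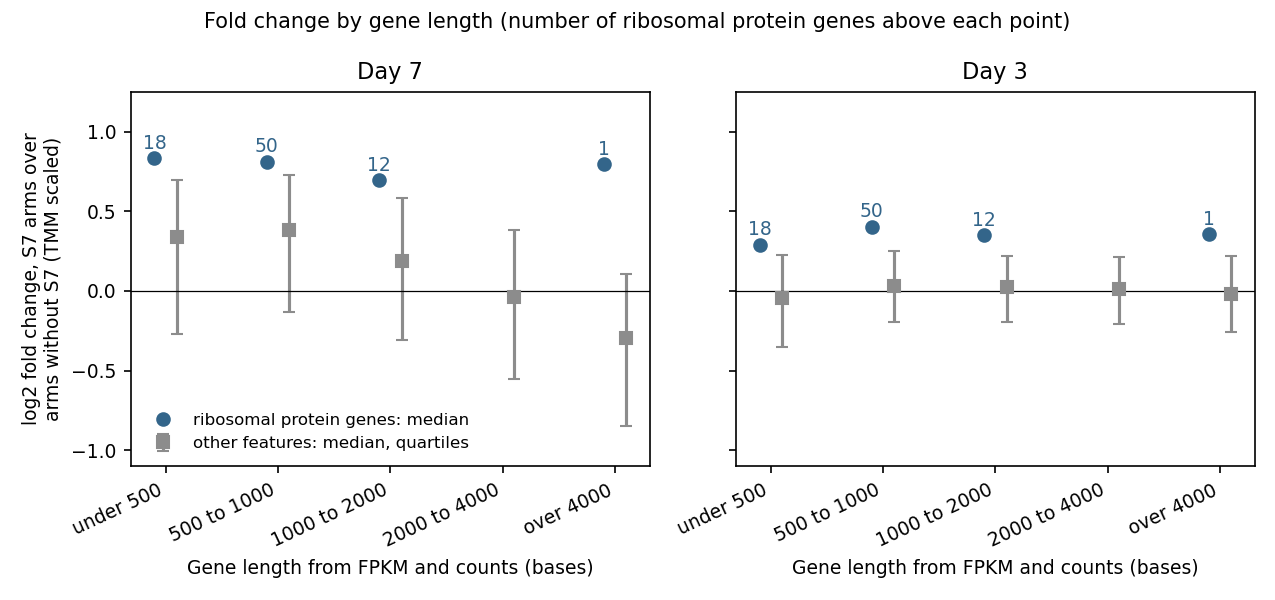
Median log2 fold change, S7 arms over arms without S7, of members (blue, with their number) and of all other features (grey, with quartiles) by gene length in bases, on day 7 (left) and day 3 (right). In the class of 500 to 1000 bases the members stand at 0.81 against 0.38 on day 7 and at 0.40 against 0.03 on day 3.

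Other large complexes, chosen by gene name, were set beside the members, and their gene lengths were not compared. On day 7, 71 of 75 mitochondrial ribosomal protein genes (median log2 fold change 0.73), 71 of 81 respiratory chain genes (0.62) and 31 of 36 proteasome genes (0.52) were higher with S7. Over all features, 24.9% were. On day 3, 1 of 75, 0 of 81 and 0 of 36 were called higher (7.10% of all features), with medians of 0.10, 0.04 and 0.02. An unadjusted p under 0.05 in edgeR was reached by 12, 18 and 4 of them (16%, 22.2% and 11.1%, against 29.1% of all features). Of the cytosolic members, 24 of 82 were called at a median of 0.38, and 63 had an unadjusted p under 0.05 (76.8%). DESeq2 called 48 of these members, and of all 15942 features it called 1341 higher and 1349 lower. DESeq2 counts for the other complexes are not given. Over time in the S7 arms, 69 of 75 mitochondrial ribosomal, 69 of 81 respiratory chain and 31 of 36 proteasome genes rose. Of all features, 24.4% rose. In that order 0, 1 and 1 fell, with medians of 0.72, 0.58 and 0.59 (0.48 for the cytosolic members). The S7 difference was larger on day 7 than on day 3 in 49, 56 and 27 and smaller in 0, 1 and 0. Those medians were 0.64, 0.59 and 0.56 (0.43 for the cytosolic members), and 13.2% of all features were larger. No test of the difference between these lists was run.

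Among the partners of the ribosome, genes for ribosome-associated and fused proteins had 5 of 8 called higher on day 7, at a median of 0.79. Of all features, 24.9% were called higher. Rack1, a scaffold on the small subunit, had 1125 and 1154 CPM in PCL-SE and PCL-S on day 7, against 596 CPM in PCL-E and 423 CPM in PCL-O (0.95), and it was also called on day 3 (0.52).

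Of 91 genes for ribosome assembly, 72 were higher and 4 lower on day 7 at a median of 0.57, against 24.9% and 26.2% of all features. On day 3, 2 were higher and 2 lower at a median of 0.08, against 7.10% and 6.87% of all features. Over time in the S7 arms, 73 of the 91 rose and 2 fell at a median of 0.62, against 24.4% and 26.4% of all features. Nle1, an assembly factor of the large subunit, had 32.6 and 32.5 CPM in PCL-SE and PCL-S on day 7, against 12.7 CPM in PCL-E and 9.95 CPM in PCL-O. On day 3 it had 14 and 11.8 CPM in PCL-SE and PCL-S, against 9.45 CPM in PCL-E and 11.3 CPM in PCL-O. Rrp1b (-0.30 and -0.84) and Wdr75 (-0.62 and -0.68), both nucleolar, were lower with S7 on day 7 and day 3. Rrp1b overlapped on day 7 in CPM, with 76.8 and 80.0 CPM in PCL-SE and PCL-S, against 74.6 CPM in PCL-E and 90.4 CPM in PCL-O, and its fold change is on the TMM scale. Npm1, the nucleolar chaperone nucleophosmin, was not called, with 601 and 537 CPM in PCL-SE and PCL-S on day 7, against 547 CPM in PCL-E and 353 CPM in PCL-O. Of 13 genes for chaperones that escort ribosomal proteins, 8 were higher and 3 lower on day 7, when 24.9% and 26.2% of all features were. None was called on day 3 by edgeR, with 2 at an unadjusted p under 0.05 (15.4%, against 29.1% of all features). Of 19 genes of RNA polymerase I and its factors, 11 were higher and 3 lower on day 7, against the same shares of all features. Polr1b (0.94) and Ubtf (0.70) were among the higher ones.

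Of 32 translation initiation genes, 18 were higher and 3 lower on day 7, where 24.9% and 26.2% of all features were. On day 3, 2 were higher and 1 lower, against 7.10% and 6.87% of all features. Eif6, which keeps the subunits apart during assembly, had 145 and 144 CPM in PCL-SE and PCL-S on day 7, against 63.7 CPM in PCL-E and 52.8 CPM in PCL-O. Eif4a1, the main helicase, was higher (0.41) and its paralog Eif4a2 lower (-0.51). Of 11 elongation genes 6 were higher and 1 lower on day 7, against the same day 7 shares of all features. Eef2 was called on both days (0.44 and 0.50), and Eef2k, the kinase that inhibits its product, was too (1.08 and 1.21). Eef1a1, the most counted of these genes, had 5255 and 5123 CPM in PCL-SE and PCL-S on day 7, against 4892 CPM in PCL-E and 3505 CPM in PCL-O, and was not called.

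The list of genes that control ribosome production held activators and inhibitors alike. Of its 36 genes, 19 were higher and 7 lower on day 7, against 24.9% and 26.2% of all features. On day 3, 6 were higher and 4 lower, against 7.10% and 6.87%. Myc had 73.5 and 78.5 CPM in PCL-SE and PCL-S on day 7, against 18.01 CPM in PCL-E and 12.8 CPM in PCL-O (2.09). On day 3 it had 44.2 and 39.3 CPM in PCL-SE and PCL-S, against 18.3 CPM in PCL-E and 15.2 CPM in PCL-O (1.34). Its relative Mycn was lower on both days (-3.45 and -2.25), at 0.213 and 0.577 CPM in PCL-SE and PCL-S on day 7, against 2.99 CPM in PCL-E and 4.22 CPM in PCL-O. Mtor and Rptor, parts of the mTOR complex, were not called on either day. Eif4ebp1, a translation inhibitor that mTOR silences, was higher on both days (0.54 and 0.50). Mdm2 was higher with S7 on day 7 (1.09) and lower on day 3 (-0.56), as was Cdkn1a (0.95 and -0.62).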

How the data were processed

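The deposited table gave counts per gene, made by the authors with an aligner and counter not named in the sources, and FPKM, the authors' counts per length and depth. The genome is mm10 per the submitters' processing notes, although the identifiers are those of rat. There were 8 libraries, 1 per arm and day, of 32950326 to 41754124 counts. A count of 3, the floor used for a count of 0, was 0.0718 to 0.0910 CPM, and such limits cover counting error only. The table held 10 lines that were fragments of annotation and were left out. Gene lengths were worked out from the deposited counts and FPKM.

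Counts were fitted with edgeR 4.0.16 (R 4.3.3, limma 3.58.1) by the quasi-likelihood F-test on all 8 libraries, with terms for S7, day, their interaction and E7, filterByExpr, TMM factors and Benjamini-Hochberg adjustment over 15942 features. There were 3 residual degrees of freedom. Ratios of single libraries were taken on log2(CPM + 2) after TMM scaling. Members are named by role, together with the 3 highest and 3 lowest fold changes of each fitted comparison, the most and least abundant members and the paralogs. The ribosomal protein genes, the other lists and the fit were chosen with earlier results of these data known. The alternatives were DESeq2 1.42.0, DESeq2 size factors, total-count scaling, TMM factors without the members, no filter, no E7 term, removal of a length trend, leaving out each library and, chosen after the data were seen, adding annotated copies.

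On simulated counts for S7 on day 7 (15646 genes), edgeR recovered 83% of 2-fold and 28% of 1.5-fold changes with 8 false calls. On day 3 (15610 genes) it recovered 95% and 36% with 13 false calls. The simulation changed 100 genes at each fold size, up and down alike, with no length trend and the spread of these same libraries. In the real fit of day 7, 3965 features were called higher and 4172 lower, so these rates need not carry over. Tables were handled in Python 3.11.15 with pandas 2.3.3 and numpy 2.4.6, and figures drawn with matplotlib 3.10.9.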

Additional observations from a re-analysis of the deposited data

Results flagged for a closer look

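The difference between S7 arms and arms without S7 was not the same on both days in 33 members, by the interaction term of the edgeR fit at an adjusted p under 0.05. Of all features, 28.7% met the same criterion. Of the members named here, the log2 difference was larger on day 7 than on day 3 by 1.05 for Rps2, 0.977 for Rpl41, 0.964 for Rps12, 0.961 for Rps28, 0.924 for Rpl18, 0.804 for Rps3, 0.742 for Rps19, 0.684 for Rpl7l1, 0.566 for Rplp0, 0.56 for Rpl22, 0.50 for Rps6 and 0.469 for Rps27l. In Rpl9 it was smaller on day 7, by -2.19 on the log2 scale, for an identifier that holds a small part of the counts of that protein.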

How the results depend on the processing

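Under total-count scaling the median log2 fold change of all features moved to 0.19 for S7 on day 7, 0.28 for day 7 over day 3 with S7 and 0.21 for the interaction. The members' medians were then 1.025, 0.79 and 0.67, with 56 members called for the interaction and 14 for S7 on day 3. Of all 15942 features, 3721 were called higher and 1749 lower for the interaction, and 1023 and 1186 for S7 on day 3. The split of all features for S7 on day 7 was 5642 higher and 3008 lower, against 3965 and 4172 with TMM. For single arms on the same scaling, the median was 1.23 for PCL-SE and 1.205 for PCL-S over PCL-O on day 7, and 0.74 in PCL-SE and 0.81 in PCL-S for day 7 over day 3. With the length trend removed, the medians were 0.52 for S7 on day 7, 0.22 for day 7 over day 3 with S7 (36 members called) and 0.20 for the interaction. Of 13686 features, 3876 were then called higher and 3767 lower for day 7 over day 3 with S7. DESeq2 called 48 members for S7 on day 3, and of all 15942 features it called 1341 higher and 1349 lower. Without S7, day 7 over day 3 gave 1 call with no filter, 3 with DESeq2 and 2 with the length trend removed. Over all features, these fits called 150 higher and 220 lower of 21739, 294 and 538 of 15942, and 149 and 233 of 13686. With copies added, Rpl9 turned to 0.58 for day 7 over day 3 with S7 and to 0.52 for the interaction. The cause was not tested. Leaving out each library in turn gave 60 to 74 calls for S7 on day 7 (median 0.72 to 0.94), 1 to 61 on day 3 (0.33 to 0.41), 21 to 69 for day 7 over day 3 with S7 (0.40 to 0.56), 0 to 9 without S7 (-0.12 to 0.17), 6 to 65 for the interaction (0.31 to 0.60) and 0 for E7 (0.04 to 0.15). No paired analysis was possible because the groups share only replicate number 1, given in accession order, which pairs nothing. The arms are matched by the E7 term, which is part of the fit reported.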
